A study of Mus musculus with 59 samples.

Results

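Autism and related neurodevelopmental disorders are associated with damaging variants in a set of genes that are supported with high confidence in human genetics, and 32 mouse genes of that set were followed here in juvenile prefrontal cortex. They were chosen by symbol, not by their measured values, and all 32 were among the 18088 genes of the deposited table. All 32 also passed the filter on low values that kept 17875 genes for testing. By role, 18 encode regulators of transcription and chromatin, 7 encode synaptic, channel and adhesion proteins, and 7 act in signalling, ubiquitin transfer or RNA binding.

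The risk genes meet at a few cell functions. Chromatin regulators such as CHD8, ARID1B and ADNP set which genes a developing neuron reads, and many are most active before birth. Synaptic and channel proteins such as SHANK3 and SCN2A build and excite the synapse and are used through life. In another branch the TSC1 and TSC2 proteins together restrain the growth kinase complex mTORC1, and the ligases UBE3A, CUL3 and TRIP12 mark proteins with ubiquitin. In humans, loss of 1 copy of many of these genes is enough to cause disease, so modest differences in their messenger RNA are of interest.

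Messenger RNA of prefrontal cortex was sequenced in mice of the C57BL/6J strain, aged 25 days. The mice were heterozygous for Ash1l (HT) or wild type (WT), of either sex, and between days 3 and 24 of life they took in lithium, fluoxetine or vehicle with maternal milk. Ash1l encodes a histone methyltransferase and is itself an autism risk gene, lithium is a mood stabiliser and fluoxetine is a serotonin reuptake inhibitor. The 59 libraries form 12 groups of 5, except HT lithium females with 4. The groups are HT lithium females, HT lithium males, HT fluoxetine females, HT fluoxetine males, HT vehicle females, HT vehicle males and the WT groups of the same drugs and sexes. Doses, the Ash1l allele, litters and dams were not in the labels, so a drug given through the dam and a litter cannot be told apart. Nothing in the labels says how the mice of a group were related, and each p-value therefore reflects spread among these libraries alone.

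Libraries held 24470332 to 36323070 reads, with a median of 27979197. Values are normalised read counts, that is, reads divided by a size factor for the library. In whole tissue, fewer cells of a type and less RNA per cell cannot be told apart. Ash1l was at 3641 to 4382 in the 29 HT libraries and at 4703 to 6218 in 29 of the 30 WT libraries. The library labelled WT vehicle female replicate 3 had 3557 for Ash1l, below every HT library. The HT minus WT log2 difference of Ash1l was -0.11 in vehicle females (limma adjusted p = 0.21), -0.40 in vehicle males, -0.35 and -0.34 in fluoxetine females and males, -0.38 and -0.30 in lithium females and males, and -0.31 on average, and all but the first passed the threshold of an adjusted p of 0.05. Without the library labelled WT vehicle female replicate 3 the vehicle female difference of Ash1l was -0.20 and passed (limma adjusted p = 0.0463), with 4107 to 4382 in HT vehicle females and 4712 to 5048 in the other 4 WT vehicle females. There 0 of the 32 risk genes stood above their own mean of all libraries, and the risk genes were on average lower by a log2 difference of -0.52. Its summed value of 4 oligodendrocyte markers was 219940, against 85037 to 115108 in the other 4 WT vehicle females, and its 4 excitatory neuron markers summed to 84963, against 148149 to 174022. WT vehicle male replicate 2 stood apart in the other direction, with 29 of 32 risk genes above their mean and an average log2 difference of 0.32. Values without 1 or both of these libraries stand beside several of the results that use them. Where no such value is given, a result is with all libraries.

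Compared per kilobase of transcript, the synaptic and channel genes held several of the highest levels. Ank2, which encodes the membrane anchor ankyrin-B, was the highest at 1739 normalised counts per kb, followed by the sodium channel gene Scn2a at 1246. The next were the transcription factor genes Tcf4 at 1100 and Myt1l at 1096, and then the postsynaptic scaffold gene Shank3 at 1070. The lowest were the calcium channel gene Cacna1c at 260, the BAF subunit gene Arid1b at 220, the remodeller gene Chd2 at 210 and Asxl3, which encodes a partner of a histone deubiquitinase, at 50.6. Chromatin genes thus stood at both ends of this order, and synaptic genes ran from the first to the twenty-ninth place.

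Most members varied less between mice of a group than the median gene, a median that includes genes with much lower values. The SD within groups on the log2 scale was 0.086 for the methyltransferase-like gene Setd5, 0.087 for the remodeller gene Chd8 and 0.089 for Tsc1, against a median of 0.189 over all genes tested. It was largest for Tbr1, a transcription factor of deep-layer neurons, at 0.238 and for Adnp at 0.236. Asxl3, Shank3, Scn2a and Foxp1 also lay above that median. The 12 group means of a gene spanned 0.160 on the log2 scale for the kinase gene Dyrk1a and up to 0.863 for Adnp. Most exonic bases of Adnp are shared with Gm20716 on the same strand. WT vehicle males held the highest group mean for 20 of the 32 genes, and WT vehicle females the lowest for 22. With both of the WT libraries that stood apart left out, these counts were 9 and 10.

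**Figure D1:**
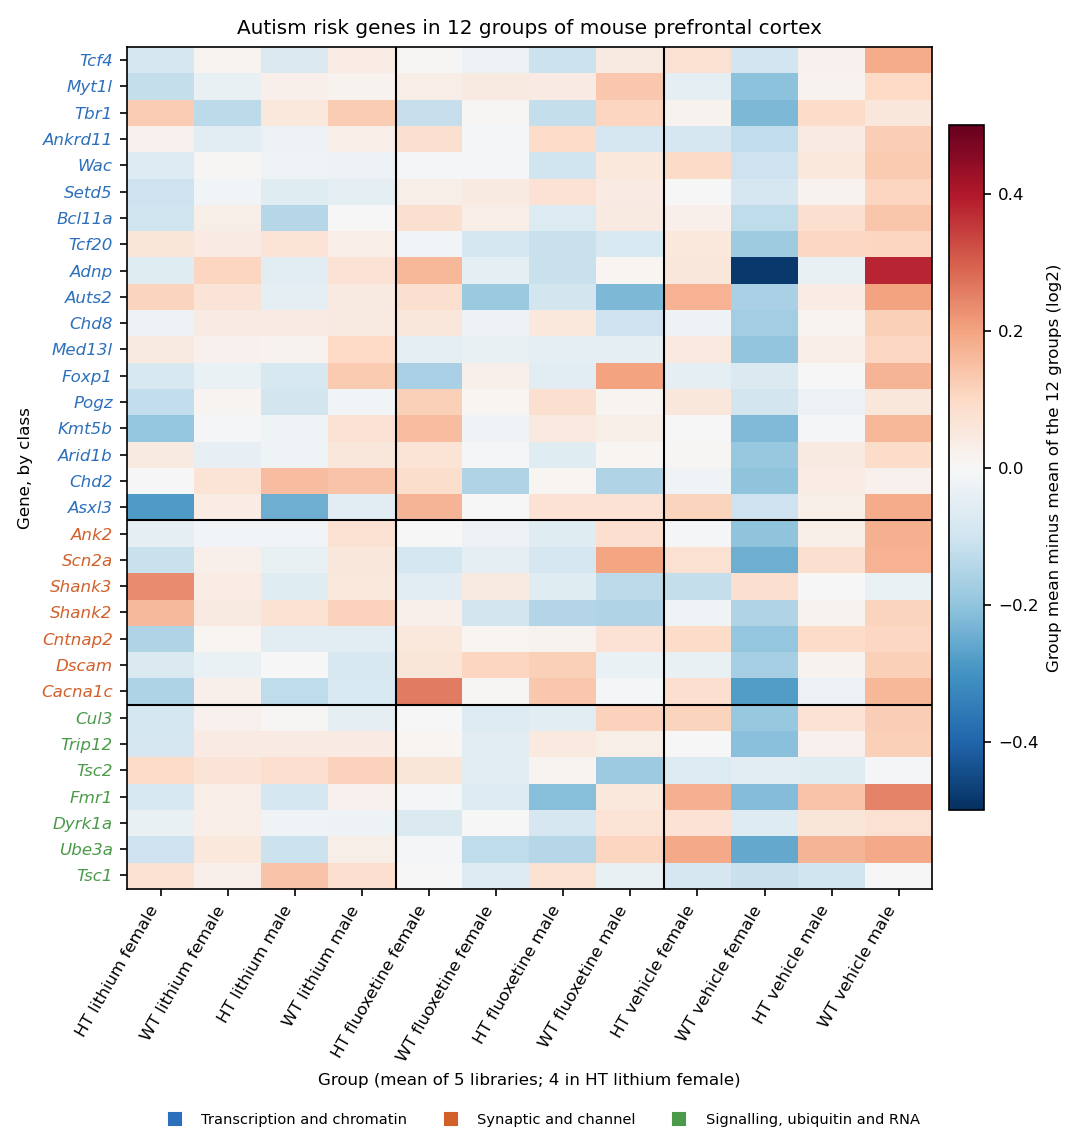
Group means of the 32 risk genes (vertical axis, by class) in the 12 groups (horizontal axis), each as the difference from the mean of the 12 groups on the log2 scale. Most genes are pale, and the strongest colours are in the 2 WT vehicle columns, where Adnp is lowest in females and highest in males.

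Lithium was compared with vehicle as the average of 4 strata, HT females, HT males, WT females and WT males. Of the 32 risk genes, 3 rose with lithium and 0 fell, where 13.1% of all genes tested passed, 7.39% rising and 5.74% falling. This count is near the share of all genes, so it is not a result about the risk genes as a set. The 3 were Tsc1, Tsc2 and Chd2, and both partners of the mTORC1-restraining complex are among them. The fold changes lay between 1.09 for Chd2 and 1.11 for Tsc1.

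Tsc1 (ENSMUSG00000026812) lies on the plus strand of chromosome 2 from 28641228 to 28691167 (GRCm38), and its protein, hamartin, stabilises TSC2. Its normalised counts were 2568, 2391, 2444 and 2481 in HT lithium females and 2310, 2237, 2301, 2102 and 2110 in HT vehicle females. These groups did not overlap. In males of the same genotype they were 2560, 2810, 2713, 2455 and 2420 in HT lithium males and 2262, 2071, 2094, 2365 and 2170 in HT vehicle males. Again every lithium library stood above every vehicle library. In WT females Tsc1 was at 2192, 2462, 2495, 2409 and 2402 with lithium and at 2322, 2183, 1879, 2174 and 2342 with vehicle, and in WT males at 2361, 2395, 2512, 2474 and 2708 with lithium and at 2255, 2405, 2310, 2443 and 2316 with vehicle. In both WT sexes the groups overlapped. Over all strata Tsc1 averaged 2487 ± 141 in lithium mice (SD, n = 19) and 2233 ± 136 in vehicle mice (SD, n = 20), a log2 difference of 0.16 ± 0.03 (SE; limma adjusted p = 0.000315), and all 19 lithium libraries were above the log2 mean of the vehicle group of their own genotype and sex (the count of libraries on 1 side is given in this way for each gene). With the library labelled WT vehicle female replicate 3 left out, 18 of 19 were above it, and the difference of Tsc1 in WT females was 0.08 in place of 0.14.

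Tsc2 (ENSMUSG00000002496) lies on the minus strand of chromosome 17 from 24595816 to 24632630 and encodes tuberin, the subunit that switches off the mTORC1 activator RHEB. It ran from 3109 over a median of 3677 to 4204 normalised counts in lithium mice and from 3108 over 3328 to 3986 in vehicle mice. The arms overlapped widely, and 16 of 19 lithium libraries were above their own vehicle group mean. The log2 difference was 0.14 ± 0.04 (SE; limma adjusted p = 0.0103), and in HT females, HT males, WT females and WT males it was 0.16, 0.15, 0.12 and 0.12. Exons of Tsc2 overlap those of Pkd1 on the other strand over 693 of its 9620 exonic bases, and Pkd1 differed by 0.10 with lithium (limma adjusted p = 0.126).

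Chd2 (ENSMUSG00000078671) lies on the minus strand of chromosome 7 from 73426638 to 73541830 and encodes a chromatin remodeller that is also an epilepsy gene. It ran from 1695 over a median of 2053 to 2302 normalised counts in lithium mice and from 1561 over 1821 to 2290 in vehicle mice, with 16 of 19 lithium libraries above their own vehicle group mean. The log2 difference was 0.13 ± 0.04 (SE; limma adjusted p = 0.012), and in the 4 strata in the same order it was 0.02, 0.12, 0.27 and 0.12. The WT female value of Chd2 was 0.25 without the library labelled WT vehicle female replicate 3. Chd2 shares 19.3% of its exonic bases with other genes, mostly with 1810026B05Rik on the same strand, which was at 129 to 278 in lithium mice and at 129 to 280 in vehicle mice.

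**Figure D2:**
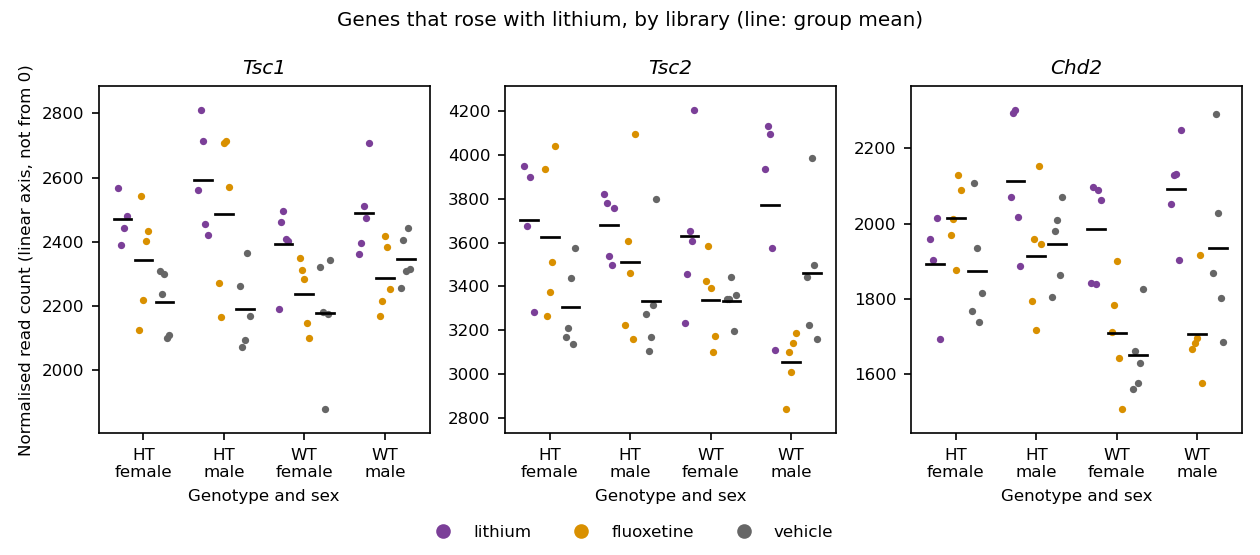
Normalised read counts (vertical axis, linear and not from 0) of Tsc1, Tsc2 and Chd2 in every library, by genotype and sex (horizontal axis), with lithium, fluoxetine and vehicle side by side and a line at each group mean. For Tsc1 the lithium points of both HT sexes lie above all their vehicle points, while for Tsc2 and Chd2 the arms overlap.

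The gene starts of Tsc1 and Tsc2 are shown because both genes rose with lithium. RefSeq windows on GRCm38.p6 were found for 26 of the 32 genes, and none for Chd2. The Tsc1 window is the 250 bases before its RefSeq start, chr2:28640983-28641232 on the plus strand. Tsc2 starts head to head with the DNA glycosylase gene Nthl1, so its window is only the 52 bases before the first exon of that neighbour, chr17:24632628-24632679 on the minus strand. Capitals mark the ETS core letters CGGAAG or their reverse complement, which were chosen after the windows had been read.
Tsc1: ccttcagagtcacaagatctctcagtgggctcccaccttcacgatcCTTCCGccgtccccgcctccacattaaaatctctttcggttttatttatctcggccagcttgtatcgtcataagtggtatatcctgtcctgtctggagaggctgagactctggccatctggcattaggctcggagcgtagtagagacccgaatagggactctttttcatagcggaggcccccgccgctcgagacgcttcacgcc
Tsc2: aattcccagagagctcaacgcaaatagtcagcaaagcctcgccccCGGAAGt
These letters, on either strand, were found in 13.6% of the 32817 windows of 250 bases before a gene start. GGGCGG is in 32.7% of those windows, CCAAT in 33.8%, TATAAA in 12.4%, CACGTG in 6.02% and TGACGTCA in 1.55%, and none of these is in either sequence printed here. A match of letters is a description and not a binding site. Nthl1, the neighbour of Tsc2, differed by 0.19 with lithium (limma adjusted p = 0.174).

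The other 29 risk genes did not pass for lithium, and their differences lay between -0.19 and 0.11. The largest was that of Asxl3, at 538 ± 75 normalised counts in lithium mice (SD, n = 19) and 614 ± 103 in vehicle mice (SD, n = 20), a log2 difference of -0.19 ± 0.07 (SE; limma adjusted p = 0.0702). The median over the 32 was -0.02, beside 0.00 over all genes tested. By class 1 of 18 chromatin genes, 0 of 7 synaptic genes and 2 of 7 signalling genes rose. Without the library labelled WT vehicle female replicate 3, 8 genes passed: Tsc1, Tsc2 and Chd2 rose, and Asxl3, Setd5, Tcf4, Fmr1 and Ube3a fell. The share of all genes that passed in that fit is not given here, so this count has no background beside it.

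Some markers of other cell types moved with the drugs. For either drug against vehicle, 0 of 4 excitatory neuron, 0 of 3 inhibitory neuron and 0 of 4 oligodendrocyte markers passed. The 5 striatal markers summed to between 1750 and 8812 in lithium libraries (median 2741), to between 1754 and 7006 in fluoxetine libraries (median 2352) and to between 1664 and 5746 in vehicle libraries (median 2096), and 0 of the 5 passed for either drug against vehicle. All 3 endothelial markers fell with lithium and with fluoxetine, 3 of 4 astrocyte markers fell with lithium and 2 of 4 with fluoxetine, 2 of 4 microglia markers fell with lithium and 1 of 4 with fluoxetine, and 1 of 2 oligodendrocyte precursor markers rose with fluoxetine. Without the 11 libraries in which the striatal sum exceeded 4000, Tsc1 still rose by 0.14 (limma adjusted p = 0.00457) and Tsc2 by 0.13 (limma adjusted p = 0.0429), while Chd2 had a difference of 0.12 and missed the threshold (limma adjusted p = 0.0502). In that fit Ube3a and Asxl3 fell, with differences of -0.16 and -0.19 (limma adjusted p = 0.0252 and 0.0443), so that 2 genes rose and 2 fell. The share of all genes that passed without these libraries is not given here. The part of the endothelial, astrocyte, microglia and precursor markers in these results was not tested.

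Fluoxetine was compared with the same vehicle libraries, so the drug comparisons share them. Of the 32 risk genes 2 fell with fluoxetine and 0 rose, where 13.5% of all genes tested passed, 6.94% rising and 6.6% falling. This count is near the share of all genes, so it is not a result about the risk genes as a set. Both genes encode chromatin regulators, as do 18 of the 32. Auts2 (ENSMUSG00000029673), on the minus strand of chromosome 5 from 131437333 to 132543344, encodes a component of a variant Polycomb complex that activates transcription in neurons. It ran from 1519 over a median of 1783 to 2401 normalised counts in fluoxetine mice and averaged 1877 ± 278 (SD, n = 20), against 2107 ± 277 in vehicle mice (SD, n = 20). The arms overlapped, with 15 of 20 fluoxetine libraries below their own vehicle group mean, and the log2 difference was -0.17 ± 0.05 (SE; limma adjusted p = 0.0164). Without the libraries rich in striatal markers it was -0.17 and missed the threshold (limma adjusted p = 0.0515). In HT females, HT males, WT females and WT males the difference of Auts2 was -0.10, -0.13, -0.02 and -0.43, so that WT males lay furthest from 0.

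Tcf20 (ENSMUSG00000041852), on the minus strand of chromosome 15 from 82808436 to 82987872, encodes a transcriptional coregulator. It ran from 2760 over a median of 3107 to 3319 normalised counts in fluoxetine mice and averaged 3068 ± 180 (SD, n = 20), against 3289 ± 374 in vehicle mice (SD, n = 20), with 16 of 20 fluoxetine libraries below their own vehicle group mean. The log2 difference was -0.09 ± 0.03 (SE; limma adjusted p = 0.0453), and it passed the threshold in 36 of the 59 fits that each left out 1 library. Fmr1, which encodes the RNA-binding protein lost in fragile X syndrome, had a difference of -0.14 that did not pass (limma adjusted p = 0.0509), and of -0.16 that passed without the libraries rich in striatal markers (limma adjusted p = 0.0306). In the 4 strata in the same order the difference of Tcf20 was -0.07, -0.21, 0.09 and -0.18, and the WT female value was 0.02 without the library labelled WT vehicle female replicate 3. Over the 32 genes the fluoxetine difference was above 0 for 29 in WT females (median 0.13) and for 4 in WT males (median -0.10). With the WT library of each sex that stood apart left out, it was above 0 for 25 in WT females (median 0.05) and for 9 in WT males (median -0.06). Without the library labelled WT vehicle female replicate 3, 6 genes fell with fluoxetine: Fmr1, Tcf20, Ube3a, Auts2, Tcf4 and Dyrk1a. For that fit, too, the share of all genes that passed is not given here. The count was 1 without any of 14 other libraries, namely HT fluoxetine female replicate 3 or 5, HT fluoxetine male 3, HT vehicle female 2, 3 or 4, HT vehicle male 2 or 3, WT fluoxetine female 1 or 2, WT fluoxetine male 5, and WT vehicle female 1, 2 or 4. Of 6 immediate early genes 4 fell with fluoxetine, their sum having a median of 11282 in fluoxetine libraries, 14847 in lithium libraries and 19715 in vehicle libraries, and their part in these results was not tested.

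Lithium was also set directly against fluoxetine, a comparison added after the data had been seen. Its means use no vehicle library, while its estimate of the spread comes from all 59 libraries. It passed for 10 of the 32 risk genes. Of these, 6 were higher and 4 lower with lithium than with fluoxetine, where 13.9% of all genes tested passed, 7.74% higher and 6.18% lower. The higher ones were Chd2, Tcf20, Tsc2, Shank2, Auts2 and Tsc1, and the lower ones Setd5, Cacna1c, Asxl3 and Pogz. Chromatin genes moved both ways, with 3 higher and 3 lower of 18, and so did synaptic genes, with 1 higher and 1 lower of 7.

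Among the higher genes, Tcf20 ran from 3039 over a median of 3313 to 3576 normalised counts in lithium mice and from 2760 over 3107 to 3319 in fluoxetine mice. All 19 lithium libraries were above the fluoxetine group mean of their own genotype and sex, and the log2 difference was 0.12 ± 0.03 (SE; limma adjusted p = 0.00746). Chd2 averaged 2028 ± 161 in lithium mice (SD, n = 19) and 1837 ± 186 in fluoxetine mice (SD, n = 20), a difference of 0.14 ± 0.04 (SE; limma adjusted p = 0.00547). Shank2, a scaffold that ties glutamate receptors to the postsynaptic cytoskeleton, ran from 7621 over 8846 to 10244 in lithium mice and from 6509 over 7823 to 9577 in fluoxetine mice. The arms of Shank2 overlapped, with 17 of 19 lithium libraries above their own fluoxetine group mean and a difference of 0.19 ± 0.06 (SE; limma adjusted p = 0.0148). Tsc2 was higher by 0.13 (limma adjusted p = 0.0131), Auts2 by 0.15 (limma adjusted p = 0.0339) and Tsc1 by 0.09 (limma adjusted p = 0.0378).

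Among the lower genes, Cacna1c encodes the pore of the main neuronal L-type calcium channel and is a shared risk gene of autism and mood disorders. It ran from 2734 over a median of 3154 to 3875 normalised counts in lithium mice and from 2867 over 3664 to 4796 in fluoxetine mice, a log2 difference of -0.18 ± 0.06 (SE; limma adjusted p = 0.0198), with 16 of 19 lithium libraries below their own fluoxetine group mean. Setd5 ran from 3550 over 3923 to 4362 in lithium mice and from 3877 over 4221 to 4698 in fluoxetine mice, with 18 of 19 lithium libraries below their own fluoxetine group mean and a difference of -0.10 ± 0.03 (SE; limma adjusted p = 0.0127). Asxl3 had a difference of -0.21 (limma adjusted p = 0.0373), and Pogz, a chromatin reader of HP1 proteins, had a difference of -0.11 (limma adjusted p = 0.0415).

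**Figure D3:**
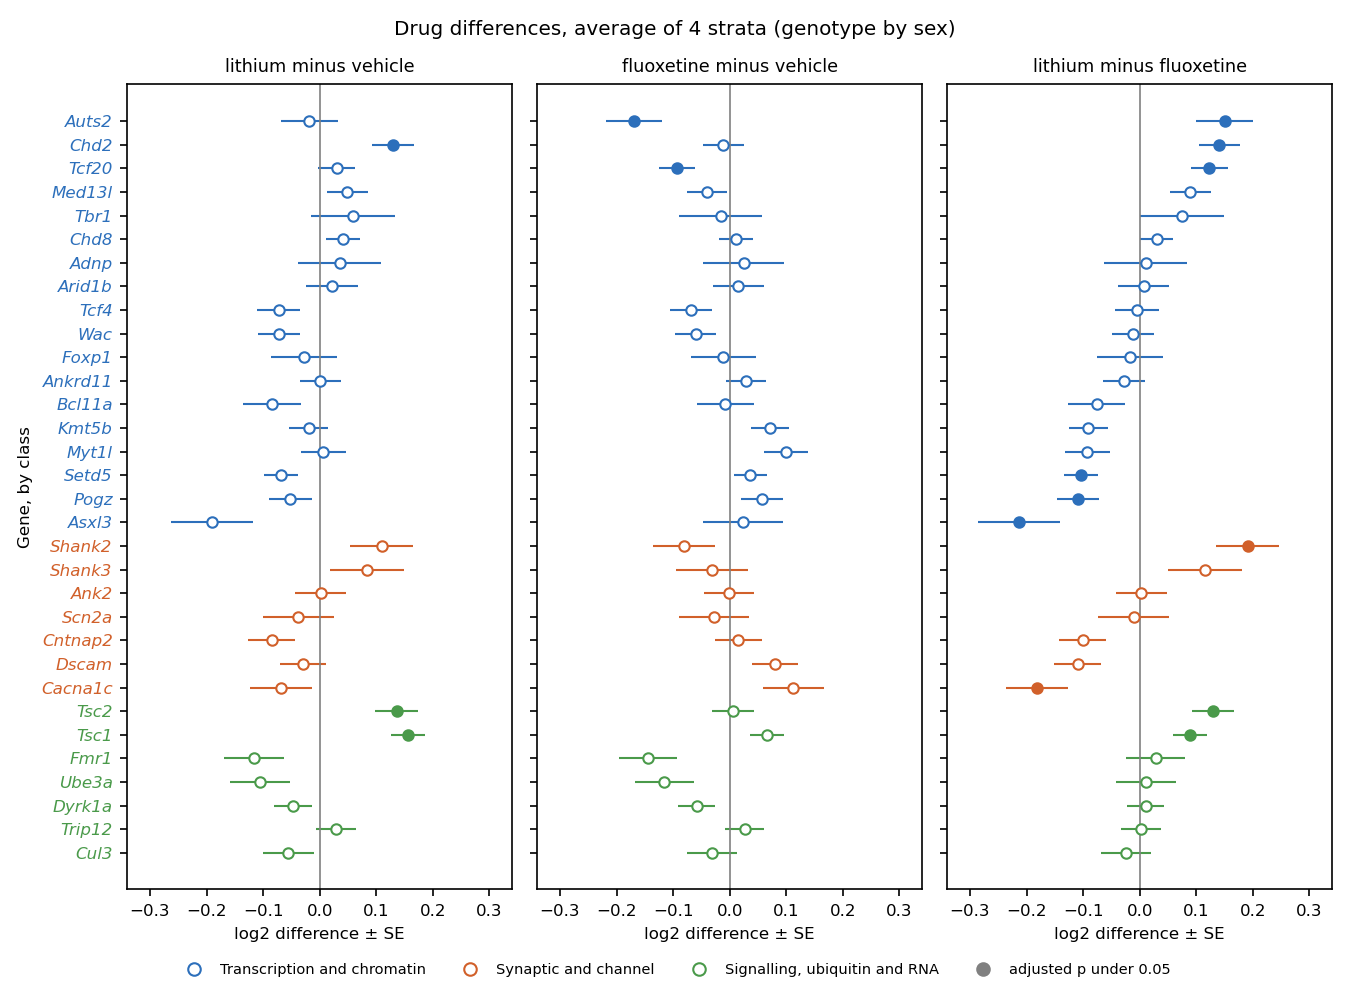
Log2 differences (horizontal axes, points with SE) of the 32 risk genes (vertical axis, by class) for lithium minus vehicle, fluoxetine minus vehicle and lithium minus fluoxetine, with filled points past an adjusted p of 0.05. In these panels 3, 2 and 10 points are filled, and in the third panel filled points lie on both sides of 0 within the chromatin and the synaptic class.

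Chd2, Tcf20, Setd5 and Cacna1c passed in all 11 alternative settings and in all 59 fits that left out 1 library. Without HT lithium female replicate 1 the count was 6. Without the libraries rich in striatal markers it was 7, and Tsc1, Tsc2 and Auts2 no longer passed (limma adjusted p = 0.12, 0.129 and 0.267). Neither count has the share of all genes of its own fit beside it. The striatal markers themselves passed between lithium and fluoxetine for 0 of 5 genes, while 2 of 6 immediate early genes were higher with lithium.

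The genotype comparison in vehicle females gave a count of risk genes that depended on single libraries. Of the 32 genes 10 rose in HT females and 0 fell, where 6.2% of all genes tested passed, 4.54% rising and 1.67% falling. They were the chromatin genes Adnp, Auts2, Tcf20, Med13l and Kmt5b, the synaptic genes Cacna1c and Cntnap2, and Ube3a, Fmr1 and Cul3. Without the library labelled WT vehicle female replicate 3, 0 of the 32 passed, as did 0.112% of all genes, and 15 of the 32 had an unadjusted p under 0.05.

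Ube3a (ENSMUSG00000025326), the Angelman syndrome ligase, had 4537, 4626, 4457, 4829 and 3678 normalised counts in HT vehicle females and 3768, 3745, 2053, 3212 and 3799 in WT vehicle females. The value of 2053 is from the library labelled WT vehicle female replicate 3, and the groups overlapped at HT replicate 5. Ube3a averaged 4426 ± 440 in HT and 3316 ± 746 in WT vehicle females (SD, n = 5 each), a log2 difference of 0.45 ± 0.10 (SE; limma adjusted p = 0.0103). Without that library it was 0.28 (limma adjusted p = 0.105).

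Adnp (ENSMUSG00000051149), on the minus strand of chromosome 2 from 168180986 to 168207112, encodes a homeodomain protein that works with the remodeller CHD4. It had 1792, 1996, 1722, 2135 and 1813 normalised counts in HT vehicle females and 1528, 1524, 904, 1377 and 1270 in WT vehicle females, groups that did not overlap. The log2 difference was 0.54 ± 0.14 (SE; limma adjusted p = 0.0211), and 0.41 without the library labelled WT vehicle female replicate 3 (limma adjusted p = 0.147). Adnp shares 82.1% of its exonic bases with Gm20716 on the same strand, so reads could be split between them. Gm20716 was at 2520 to 3021 in HT and 2577 to 3148 in WT vehicle females, and the sums of both genes overlapped, at 4333 to 5007 in HT and 3846 to 4590 in WT vehicle females.

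Auts2 had 2164, 2338, 2219, 2205 and 2378 normalised counts in HT vehicle females and 1903, 1591, 1921, 1716 and 1825 in WT vehicle females. These groups did not overlap, and here the library labelled WT vehicle female replicate 3 was the highest of its group at 1921. The log2 difference was 0.34 ± 0.10 (SE; limma adjusted p = 0.0302), and 0.36 without that library (limma adjusted p = 0.0856). Auts2 was thus as far apart without the library as with it, although it no longer passed.

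Fmr1 had 2844, 2605, 2700, 2828 and 2214 normalised counts in HT vehicle females and 2408, 2231, 1335, 2007 and 2217 in WT vehicle females, a log2 difference of 0.39 ± 0.10 (SE; limma adjusted p = 0.0182) between overlapping groups, and of 0.25 without the library labelled WT vehicle female replicate 3 (limma adjusted p = 0.17). Cacna1c had 3092, 3898, 3337, 3549 and 4154 in HT vehicle females and 3247, 2953, 2177, 2811 and 2855 in WT vehicle females, a difference of 0.36 ± 0.11 (SE; limma adjusted p = 0.0347), and of 0.28 without that library (limma adjusted p = 0.198). Both groups overlapped, and both genes were lowest within the library labelled WT vehicle female replicate 3. The remaining 5 rose by 0.22 to 0.30, namely the methyltransferase gene Kmt5b by 0.22, Tcf20 by 0.23, the Mediator subunit gene Med13l by 0.24, the axonal adhesion gene Cntnap2 by 0.28 and the ubiquitin scaffold gene Cul3 by 0.30. These differences without the library labelled WT vehicle female replicate 3 were 0.17 for Kmt5b, 0.16 for Tcf20, 0.13 for Med13l, 0.20 for Cntnap2 and 0.21 for Cul3, and none passed. All 10 had 5 of 5 HT libraries above a WT mean that includes the library labelled WT vehicle female replicate 3. The 10 were picked from these same values, so that count is a description only.

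The 22 genes that did not pass included Shank3, which had 8087, 6158, 8478, 6086 and 7591 normalised counts in HT vehicle females and 9385, 10448, 5221, 8467 and 8880 in WT vehicle females. Shank3 had a log2 difference of -0.20, and of -0.36 without the library labelled WT vehicle female replicate 3 (limma adjusted p = 0.119). In all, 30 of the 32 differences were above 0, with a median of 0.19, beside 0.00 over all genes tested. Without that library 26 were above 0 and the median was 0.11.

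**Figure D4:**
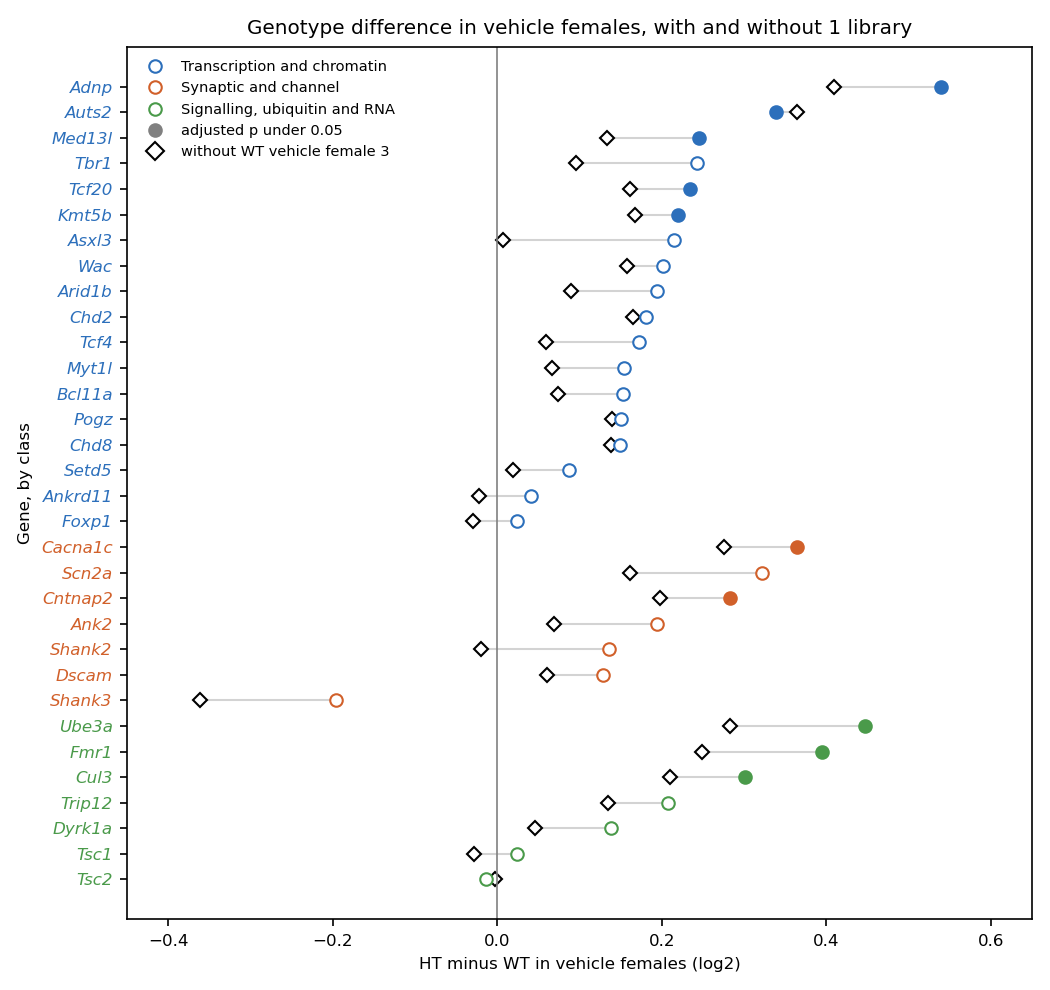
Log2 difference of HT minus WT vehicle females (horizontal axis) for each risk gene (vertical axis, by class), with all libraries (circles, filled where the adjusted p is under 0.05) and without the library labelled WT vehicle female replicate 3 (diamonds, none filled). The diamonds of most genes lie closer to 0 than their circles, while that of Auts2 does not and that of Shank3 lies further below 0.

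The count also fell to 0 without HT vehicle female replicate 4, to 1 without HT replicate 2 and to 6 without WT replicate 4. It was 0 when only these 2 groups were fitted and 0 when trends with GC content and transcript length were removed from each library. With those trends removed the difference was 0.06 for Cul3, 0.09 for Cntnap2, 0.10 for Kmt5b, 0.11 for Ube3a, 0.13 for Tcf20, 0.17 for Fmr1 and Med13l and 0.25 for Cacna1c, while it was 0.35 for Auts2 and 0.46 for Adnp. Of the markers of other cell types, the precursor marker Cspg4 and the endothelial marker Cldn5 fell in HT vehicle females, with differences of -0.55 and -0.40 (limma adjusted p = 0.0181 and 0.0356). The 3 inhibitory neuron markers summed to 13032 to 24498 in HT vehicle females and 11341 to 14986 in WT vehicle females, and the 4 oligodendrocyte markers to 53733 to 116653 in HT vehicle females and, with all 5 libraries, to between 85037 and 219940 in WT vehicle females. Their part in the result was not tested.

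In vehicle males 0 of the 32 risk genes passed between HT and WT, where 0.00559% of all genes did, and edgeR and DESeq2 also called 0. Unadjusted p-values were under 0.05 for 3 genes, Adnp, Kmt5b and Tcf4, with log2 differences of -0.42, -0.18 and -0.17 (limma adjusted p = 0.705 for each). Adnp had 2418, 1913, 1503, 1552 and 1586 normalised counts in HT vehicle males and 2340, 2152, 2918, 2191 and 2278 in WT vehicle males, groups that overlapped through HT replicate 1. The sum of Adnp and Gm20716 was 4529 to 4802 in HT and 4485 to 5552 in WT vehicle males. Over the 32 genes the median difference was -0.09, and 3 were above 0. Without WT vehicle male replicate 2 the median was -0.05, and 10 were above 0.

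The genotype difference in vehicle females minus that in vehicle males passed for 5 of the 32 genes, where 2.9% of all genes tested passed, 1.77% higher and 1.14% lower. They were Adnp with 0.96 ± 0.20, Kmt5b with 0.40 ± 0.10, Cacna1c with 0.56 ± 0.15, Auts2 with 0.50 ± 0.14 and Fmr1 with 0.50 ± 0.15 (log2 ± SE; limma adjusted p = 0.0247, 0.028, 0.0367, 0.0373 and 0.0467). The count was 0 without the library labelled WT vehicle female replicate 3, without WT vehicle male replicate 2 or 3, and without HT vehicle female replicate 4 or HT vehicle male replicate 2. It was 13 without HT vehicle female replicate 5, and from 1 to 10 without HT vehicle female replicate 2, HT vehicle male replicate 1, 3 or 4, WT vehicle female replicate 1, 4 or 5, or WT vehicle male replicate 1 or 5. Adnp shares 82.1% of its exonic bases with Gm20716, so its value of 0.96 is for Adnp alone. The sum of both genes averaged 4673 in HT and 4256 in WT vehicle females. In vehicle males that sum averaged 4679 in HT and 4818 in WT, and its interaction was not tested. Ash1l itself had an interaction of 0.29 (limma adjusted p = 0.0367), its difference being -0.11 in vehicle females and -0.40 in vehicle males, and without the library labelled WT vehicle female replicate 3 the interaction was 0.20 (limma adjusted p = 0.0986).

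Under the drugs and on average, no risk gene passed between HT and WT. In fluoxetine females 0 of 32 passed by limma and edgeR and 1 by DESeq2, where 1.95% of all genes passed by limma (1.37% higher and 0.582% lower), and 4 had an unadjusted p under 0.05. Chd2 was nearest there, at 2016 ± 99 normalised counts in HT fluoxetine females and 1710 ± 148 in WT fluoxetine females (SD, n = 5 each), a log2 difference of 0.24 (limma adjusted p = 0.0594). In fluoxetine males 0 passed by any of the 3 tools beside 0.386% of all genes (0.0895% higher and 0.297% lower), with 11 at an unadjusted p under 0.05, led by Chd8 with 0.16, Tsc2 with 0.19 and Fmr1 with -0.27 (limma adjusted p = 0.177, 0.18 and 0.192).

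In lithium females 0 passed by any of the 3 tools beside 0.00559% of all genes, with 2 at an unadjusted p under 0.05, and Kmt5b had a difference of -0.19 (limma adjusted p = 0.575), Asxl3 of -0.32 (0.638) and Cntnap2 of -0.16 (0.679). In lithium males 0 passed by any tool beside 0.00559% of all genes and 0 had an unadjusted p under 0.05. There the transcription factor gene Foxp1 had -0.21, the repressor gene Bcl11a -0.15 and Tcf4 -0.11. Averaged over the 6 strata 0 passed by any tool beside 0.358% of all genes (0.129% higher and 0.229% lower), with 4 at an unadjusted p under 0.05, and the 32 differences lay between -0.14 for Foxp1 and 0.09 for Chd2 and Auts2.

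The genotype difference did not pass for any risk gene as a function of drug. With fluoxetine minus with vehicle, 0 of 32 passed by any of the 3 tools (background 0.0392%, of it 0.0168% higher and 0.0224% lower) and 9 had an unadjusted p under 0.05, led by Ube3a with -0.28, Dyrk1a with -0.17 and Tsc2 with 0.19. With lithium minus with vehicle, 0 passed by any tool (background 0%) and 4 had an unadjusted p under 0.05, led by Ube3a with -0.36, Cntnap2 with -0.22 and Fmr1 with -0.26. Between females and males 0 passed by any tool (background 0.117%, of it 0.0783% higher and 0.0392% lower), 10 had an unadjusted p under 0.05, and Trip12 with -0.10, Myt1l with -0.11 and Kmt5b with -0.10 had the smallest p-values.

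Of the 32 risk genes 15 passed in none of the 14 comparisons. They include the synaptic genes Scn2a, Shank3, Ank2 and Dscam, the last an adhesion molecule that spaces neurites. Ank2 had group means between 21827 ± 3875 normalised counts in WT vehicle females and 28291 ± 4992 in WT vehicle males (SD, n = 5 each). Scn2a had its lowest group mean, 9491 ± 2027, in WT vehicle females and its highest, 12675 ± 1341, in WT fluoxetine males. Shank3 ran the other way, with 9243 ± 834 in HT lithium females (SD, n = 4) as its highest group mean and 7156 ± 358 in WT fluoxetine males (SD, n = 5) as its lowest.

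Among the chromatin genes of these 15, Chd8, the remodeller gene most often hit in autism, lay between 2655 ± 128 in WT vehicle females and 3265 ± 305 in WT vehicle males, and Arid1b between 2199 ± 349 and 2658 ± 374 in the same groups (SD, n = 5 each). Tbr1 lay between 3078 ± 676 in WT vehicle females and 3863 ± 421 in WT lithium males. Foxp1 had its lowest group mean, 2165 ± 264, in HT fluoxetine females and its highest, 2769 ± 83, in WT fluoxetine males. Ankrd11, which encodes a corepressor-binding nuclear protein, Wac, Bcl11a, Tcf4 and Myt1l make up the rest. Of these, Ankrd11, Wac, Bcl11a and Tcf4 were highest in WT vehicle males, where Tcf4 reached 10744 ± 1345. The signalling genes Dyrk1a, at 2196 to 2456, and Trip12, at 4945 to 6210, completed the 15.

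Chromatin and synaptic genes were set against each other through their class means in each library. In the genotype and drug comparisons the mean difference of the 18 chromatin genes minus that of the 7 synaptic genes lay between -0.03 and 0.03 on the log2 scale, and this class difference had an SD of 0.074 between libraries of a group. In vehicle females it was 0.02, with medians of 0.19 for chromatin, 0.19 for synaptic and 0.21 for signalling genes. In WT vehicle females the class means were -0.17, -0.17 and -0.16 relative to all libraries, and in WT vehicle males 0.135, 0.117 and 0.107. The 4 other WT vehicle females, without the library labelled WT vehicle female replicate 3, gave class means of -0.095 for chromatin, -0.045 for synaptic and -0.072 for signalling genes, and the vehicle female class difference was 0.067. Without WT vehicle male replicate 2 the WT vehicle male means were 0.080, 0.089 and 0.054.

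**Figure D5:**
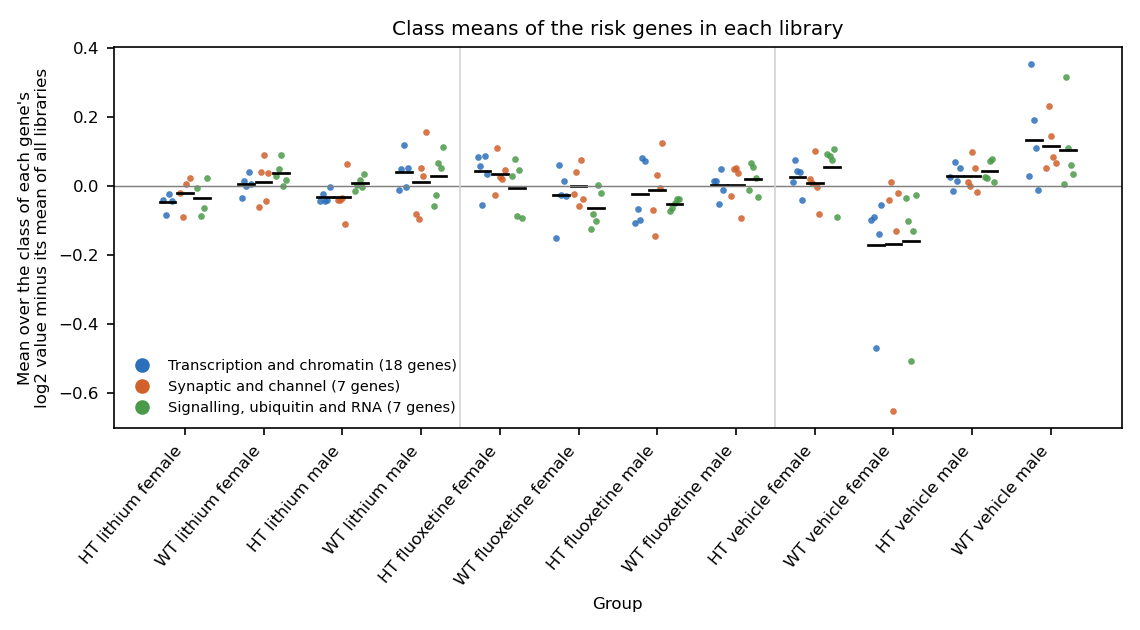
Mean over each class of the genes' log2 values minus their own means of all libraries (vertical axis) for every library, by group (horizontal axis) and class, with a line at the group mean. The 3 points near or below -0.47 all belong to the library labelled WT vehicle female replicate 3, and in each group the 3 lines lie close together.

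The classes differed in gene length. The genomic span had a median of 577.7 kb in synaptic genes, 136.8 kb in chromatin genes and 75.6 kb in signalling genes, against 21.2 kb over all genes tested. Over 100 kb were 6 of 7 synaptic genes, 10 of 18 chromatin genes and 2 of 7 signalling genes, or 56.2% of the 32, against 13.7% of all genes. In vehicle females the share of all genes that rose in HT was 0.784% under 10 kb, 2.72% from 10 to 30 kb, 8.21% from 30 to 100 kb, 9.76% from 100 to 300 kb and 10.5% above, and the risk genes that rose were 1 of 2, 4 of 12, 2 of 8 and 3 of 10 in the last 4 classes, with none under 10 kb. In this fit with all libraries, the background for genes of this length is thus above the 4.54% of all genes. Shares by length without the library labelled WT vehicle female replicate 3 are not given here.

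Across genes, the vehicle female difference had Spearman's rho of 0.28 with span and -0.53 with GC content over all genes, and 0.03 and -0.48 over the 32 risk genes, which share libraries and are not independent. These rho values include the library labelled WT vehicle female replicate 3, and those without it are not given here. Within that library, log2 deviations from the genes' means had a rho with span of -0.26. This rho was -0.19 to -0.05 in the other 4 WT vehicle females and -0.06 to 0.15 in HT vehicle females. The highest GC content among the signalling genes was that of Tsc2 at 54.7% and the lowest that of Ube3a at 36.9%. For lithium minus vehicle the rho with GC content was 0.64 over the 32 genes and 0.21 over all genes, and with span -0.20 and -0.07. With the GC and length trends removed, Tsc1 rose with lithium by 0.14, Tsc2 by 0.11 and Chd2 by 0.13 (limma adjusted p = 0.000884, 0.00768 and 0.00426), and Trip12 rose by 0.06 (limma adjusted p = 0.0423).

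Another 20 risk genes listed as chromatin genes and 20 listed as synaptic genes were read from the same fits. The chromatin list is broad and also holds the Wnt effector gene Ctnnb1 and the helicase gene Ddx3x. With lithium 1 of the 20 chromatin genes fell and 0 rose, namely Ctnnb1, which encodes the Wnt effector beta-catenin. Ctnnb1 ran from 14306 over a median of 15658 to 16620 normalised counts in lithium mice and from 14053 over 18193 to 20753 in vehicle mice, a log2 difference of -0.22 (limma adjusted p = 6.11e-07). Against fluoxetine mice, at 16582 over 18308 to 19525, the ranges overlapped only between 16582 and 16620 and the difference was -0.23 (limma adjusted p = 2.89e-08). Of the 20 synaptic genes 2 rose with lithium and 1 fell. Among them the calcium channel subunit gene Cacna2d3 rose by 0.20 (limma adjusted p = 0.0167), and the adhesion gene Lrrc4c fell, with a difference of -0.19 (limma adjusted p = 0.0301).

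With fluoxetine 3 of the 20 chromatin genes fell and 0 rose, and 0 of the 20 synaptic genes passed. Kmt2a, a methyltransferase of active promoters, ran from 3408 over a median of 3993 to 6041 normalised counts in fluoxetine mice and from 3667 over 5033 to 6055 in vehicle mice, a log2 difference of -0.25 (limma adjusted p = 8.78e-05). The insulator protein gene Ctcf had -0.11 (limma adjusted p = 0.00917) and the chromatin organiser gene Satb1 -0.16 (limma adjusted p = 0.0261), and Satb1 missed the threshold without the libraries rich in striatal markers (limma adjusted p = 0.0885). Between lithium and fluoxetine 1 chromatin gene was higher, Kmt2a by 0.19 (limma adjusted p = 0.00287), and 3 were lower, while 1 synaptic gene was higher and 1 lower.

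Between HT and WT vehicle females 3 of the 20 chromatin genes rose, Ddx3x by 0.34, Kmt2c by 0.39 and Kmt2a by 0.28, and 2 of the 20 synaptic genes, among them the AMPA receptor subunit gene Gria2 by 0.44 (limma adjusted p = 0.00598, 0.00735, 0.0479 and 0.0112). None of these 5 passed without the library labelled WT vehicle female replicate 3. In fluoxetine females Kmt2a was higher in HT by 0.41 (limma adjusted p = 0.0074), the 1 of 40 genes that passed there. All 6 immediate early genes were also higher in HT fluoxetine females, their sum being 14633 to 29870 in HT fluoxetine females and 6152 to 9809 in WT fluoxetine females, and their part in the result was not tested. The X-linked helicase gene Ddx3x was higher in females than in males by 0.29 (limma adjusted p = 1.37e-10), the 1 of 40 that passed between the sexes.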

How the data were processed

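The authors deposited 1 table of size-factor normalised read counts (unit signal, 1 value per gene and library). Per the labels' protocols, libraries were made with a stranded mRNA kit, and the submitters' processing notes name Salmon 0.11.2, R 3.6.0, DESeq2 1.19.11 and GRCm38 without their order. For the strand setting and the choice of genes, "not given in the sources used here" applies. Gene positions came from GENCODE M21. In every library all values were whole multiples of 1 step within 0.01, which gave the reads. In 4 libraries the size factor is so close to 1 that this step cannot be told from whole counts by the unit check, and their reads rest on the same step.

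The test was limma 3.58.1 (R 4.3.3) (trend and robust options of eBayes) applied to log2(value + 1), fitted to all 59 libraries with 1 mean per group, so fold changes of low genes are understated. Genes at 10 or more in at least 5 libraries were tested. Each comparison had its own Benjamini-Hochberg adjustment, over 17875 genes (threshold 0.05). Drug comparisons averaged 4 strata with equal weight. The script recovered large known changes when tested on simulated data. That simulation gave all genes the same dispersion and held no library that stood apart. Its recovery of changes as small as most of those reported here is not given.

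Alternatives were a pseudocount of 10, no filter, TMM scaling, edgeR 4.0.16 and DESeq2 1.42.0 on the recovered reads, only the groups compared, GC and transcript length trends removed, a replicate block with and without these trends, both WT libraries that stood apart left out, each library left out, and, added after the data had been seen, libraries whose 5 striatal markers summed to over 4000 left out. Members and lists were chosen with earlier results of these data known. Genes past the threshold are named, at most 10 per comparison, otherwise the 3 with the smallest p, and at most 4 of the other risk genes, some of which are counted but not reported by name here. Marker sums are of deposited values. Precision is limited by 4 or 5 libraries per group, and reads without molecular identifiers are not independent molecules. No 2 libraries were duplicates, the highest correlation being 0.989.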

Additional observations from a re-analysis of the deposited data

Results flagged for a closer look

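Within each group of 4 or 5 libraries, a library was picked out when its gap to the next one was a large share of the group's range. This was examined for 252 pairs of group and value and picked out 17, and chance picks out about 1 in 20 such pairs. Of the 17, 6 were within the library labelled WT vehicle female replicate 3. There the mean log2 deviation from all libraries was -0.52 over the 32 genes, -0.47 over chromatin genes, -0.65 over synaptic genes and -0.50 over signalling genes. The lowest of the other 4 WT vehicle females were at -0.13, -0.14, -0.13 and -0.13 for the same sets. Asxl3 was at 303 there, against 565 to 665, and Setd5 at 3179, against 3918 to 4184. WT vehicle male replicate 2 was high for Cul3 at 6018, Fmr1 at 3626 and Ube3a at 5550, against at most 4201, 2764 and 4297 in the other WT vehicle males. WT vehicle male replicate 3 was high for Adnp at 2918.

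Other single values stood apart from their group. HT lithium female replicate 4 had 4402 for Cul3, against 3539 to 3632, and HT lithium female replicate 1 had 3576 for Tcf20, against 3263 to 3313. HT lithium male replicate 5 had 10164 for Shank2, against 8097 to 8659, and WT lithium male replicate 5 had 520 for Asxl3, against 563 to 579. WT fluoxetine female replicate 2 had 2111 for Pogz, against 1613 to 1727. HT vehicle female replicate 5 had a mean deviation of -0.059 over the 32 genes, against 0.03 to 0.06, and of -0.090 over signalling genes, against 0.08 to 0.11.

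The genotype difference itself differed between vehicle females and vehicle males, by the interaction term in limma, for Adnp by 0.96, Cacna1c by 0.56, Auts2 by 0.50, Fmr1 by 0.50, Kmt5b by 0.40 and Ash1l by 0.29 on the log2 scale. None of the 5 risk genes, nor Ash1l, passed without the library labelled WT vehicle female replicate 3. Adnp shares 82.1% of its exonic bases with Gm20716, and the interaction was not tested for the sum of both genes.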

How the results depend on the processing

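No gene that passed the threshold changed its direction in any alternative. The counts of risk genes below are given without the share of all genes in each alternative fit. They show how far a count moved and cannot be set against a background. For HT minus WT in vehicle females (10 genes) the count was 0 with only the groups compared, with GC and transcript length trends removed, with both WT libraries that stood apart left out and without the striatum-rich libraries, and it ranged from 0 to 12 over the fits that left out 1 library. The interaction of genotype with sex in vehicle mice (5 genes) gave 11 by DESeq2 and 0 with each of those same 4 alternatives, and 0 to 13 with 1 library left out. Fluoxetine minus vehicle (2 genes) gave 1 with only the groups compared, 5 with the trends removed and 6 with both WT libraries left out, and 1 to 6 with 1 library left out. Lithium minus vehicle (3 genes) gave 8 with both WT libraries left out and 3 to 8 with 1 library left out, the 8 being without the library labelled WT vehicle female replicate 3. Lithium minus fluoxetine (10 genes) ranged from 6 to 12. HT minus WT in fluoxetine females (0 genes) gave 1 by DESeq2, 1 with both WT libraries left out and 0 to 1 with 1 library left out. HT minus WT in fluoxetine males gave 1 with both WT libraries left out, and genotype by fluoxetine 0 to 1 with 1 library left out. The remaining comparisons stayed at 0. TMM scaling moved the median of all genes by at most 0.01. The class differences moved by less than the spread between single libraries (SD 0.074). This is a wide limit for differences between group means, so it does not show that they were stable. Several changed sign with 1 library left out, as in vehicle females (-0.0033 to 0.067), vehicle males (-0.042 to 0.0084), lithium females (-0.041 to 0.0032) and lithium minus vehicle (-0.016 to 0.0024). Among results for single genes 535 of the other alternatives stayed on the same side of the threshold, 89 lost it and 3 gained it. Direction was compared only where a gene passed in the main fit or in the alternative.

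Replicate numbers did not pair the libraries: the mean correlation of residuals was -0.01 for the same number in different groups, and 0 of 5 pairs of HT and WT vehicle females exceeded 0.1. With the replicate block the counts were 10 in vehicle females, 4 for genotype by sex, 1 for fluoxetine, 3 for lithium and 10 for lithium minus fluoxetine. With the block and the trends removed, vehicle females gave 0, genotype by sex 0 and fluoxetine 5. The lowest value of any of the 32 genes in any library was 303 normalised counts, for Asxl3.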
